A study of Rattus norvegicus with 4 samples.

Results

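The muscle LIM-domain genes are a set of 10 genes listed by name, Fhl1, Fhl2, Csrp1, Csrp2, Csrp3, Lmcd1, Pdlim3, Pdlim5, Pdlim7 and Ldb3. The set was chosen with earlier results of these data known. Each symbol matched 1 gene identifier, so the set held 10 of the 32883 genes in the count table, and 10 of 10 passed the filter on low counts. They were measured by strand-specific, rRNA-depleted RNA-seq in ventricular cardiomyocytes isolated from Sprague-Dawley rats at postnatal day 2, plated after a step in which non-cardiomyocytes attach and are removed. The treated group was 2 libraries of cells given 20 µM phenylephrine (PE), an adrenergic receptor agonist used to induce hypertrophic growth in culture, for 24 h. The control group was 2 libraries of untreated cells. Cells of both groups were grown in medium with fetal bovine serum. Nothing in the labels says that the 2 libraries of a group came from separate cultures, and the spread behind each p-value may therefore be technical.

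A LIM domain is a zinc-binding fold that holds proteins together and does not bind DNA by itself. In striated muscle, proteins built from LIM domains sit at the Z-disc and along the sarcomere, where they link actin-bound scaffolds to kinases and phosphatases, and several of them also enter the nucleus as transcriptional cofactors. Mutations in FHL1, CSRP3 and LDB3 are known causes of human myopathy or cardiomyopathy, which is why these genes are often followed in models of cardiac growth.

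Transcripts of 7 of the 10 genes rose with PE, none fell, and 3 did not pass the test. The rise was 8.35-fold for Fhl1, 5.68-fold for Lmcd1, 4.56-fold for Csrp3, 3.24-fold for Pdlim3, 2.85-fold for Csrp2, 2.44-fold for Pdlim5 and 1.93-fold for Csrp1 (n = 2 libraries per group). Those that did not pass were Fhl2, Pdlim7 and Ldb3, whose 95% intervals included no change. A gene counted as changed at a Benjamini-Hochberg adjusted p under 0.05 in edgeR's quasi-likelihood test over 15257 tested genes. By that rule 7.39% of all tested genes were higher with PE, 8.3% were lower and 15.7% changed in either direction. The members' median log2 fold change was 1.40, beside a median of -0.01 over all tested genes. Because the members were chosen with earlier results known, these values are set side by side and are no test of the set. At an unadjusted p under 0.05, 0 members were lower, but the share of all tested genes lower at that threshold was not counted. DESeq2 called 7 members higher and 0 lower, beside 8.22% and 8.77% of all genes with an adjusted p. The authors' deposited table had 7 members higher and 0 lower, beside 8.13% and 8.65% of its genes with an adjusted p. Log2 fold changes from DESeq2 matched those of the deposited table to within 1e-06, so the deposited table is no separate support. Log2 fold changes of the members in the authors' deposited table differed from the edgeR values by at most 0.0033.

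**Figure D1:**
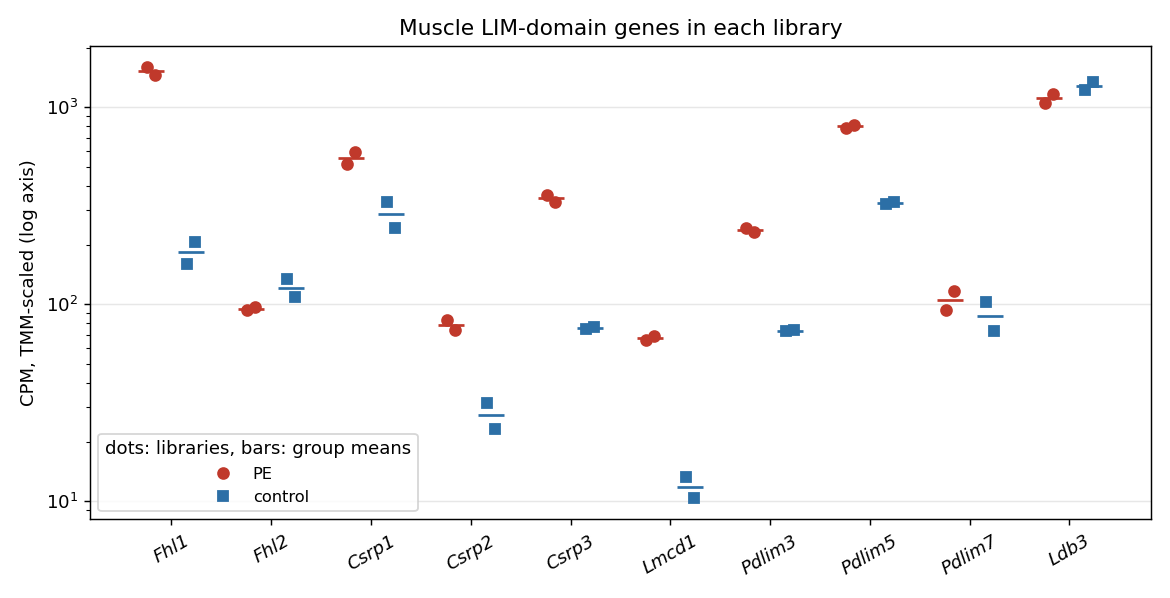
Level of each of the 10 genes in TMM-scaled CPM (log axis) in the PE libraries (red dots, left) and the control libraries (blue squares, right), with bars at the group means. PE and control libraries are apart for 9 of the 10 genes, beside 56.7% of all tested genes, and interleave for Pdlim7. Fhl2 and Ldb3 are apart but did not pass the test. Levels should be compared within a gene only, since transcripts differ in length.

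As a group the 10 genes took 0.482% and 0.487% of all counts in the PE libraries, against 0.255% and 0.249% in the controls. Fhl1 made up 32.6% and 29.6% of the members' counts with PE and 6.46% and 8.29% in controls. Ldb3 made up 21.6% and 23.5% with PE, against 49.7% and 54.0% in controls. These shares are of reads and were not corrected for transcript length. In CPM, counts scaled to the TMM-adjusted library size, PE and control libraries did not overlap in 9 of the 10 genes, beside 56.7% of all tested genes.

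Library totals lay between 45637881 and 56948370 counts. The smallest count of any member in any library was 475, so counting error alone was at most 4.59% of a value. Mitochondrially encoded genes took 4.49% and 4.62% of counts with PE, against 6.04% and 11.2% in controls, highest in control replicate 2. With these genes left out 7 members were higher and 0 lower. The control libraries differed from each other more than the PE libraries did. The median absolute log2 difference between replicates was 0.12 within PE and 0.32 within controls over the members, and 0.16 and 0.30 over all tested genes. Control replicate 1 was above control replicate 2 for Fhl2, Csrp1, Csrp2, Lmcd1 and Pdlim7, by 0.30 to 0.49 on the log2 scale, and below it for Fhl1, at -0.38.

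Calls in each short list of cell type markers stand beside 7.39% higher and 8.3% lower over all tested genes. Markers of cardiomyocytes were abundant in all 4 libraries, and 4 of 11 tested rose and none fell. Their summed level was 27481 and 29041 CPM with PE and 19317 and 19757 CPM in controls. The cardiac actin gene Actc1, which rose 2.88-fold, accounted for that difference: without it the other 10 markers summed to 14394 and 15250 CPM with PE and 14363 and 15379 CPM in controls. The median log2 fold change of the 11 markers was -0.07. Other cell types were present in both groups. Of 8 tested fibroblast markers 3 fell and none rose, with a summed level of 10110 and 10022 CPM with PE and 18257 and 16406 CPM in controls. Of 8 tested endothelial markers 6 fell (136 and 140 CPM with PE, 229 and 227 CPM in controls), of 9 macrophage markers 2 fell (220 and 195 CPM, against 290 and 324 CPM) and of 7 mesothelial markers 3 fell and 1 rose (109 and 121 CPM, against 219 and 182 CPM). Of 9 smooth muscle and pericyte markers 2 rose and 1 fell, with summed levels of 1276 and 1425 CPM with PE and 1552 and 1091 CPM in controls. The smooth muscle genes that rose were Cnn1 (31.4-fold) and Mcam (2.99-fold), while Tagln was at 0.57-fold and fell. The 3 tested Schwann cell markers did not pass, at a summed 9.71 and 9.53 CPM with PE and 9.62 and 11.1 CPM in controls. No listed marker found in the table was at 0 in every library. In bulk samples, fewer cells of a type and less RNA per cell cannot be told apart, and the part of cell composition in the members' differences was not tested.

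The FHL proteins consist almost wholly of LIM domains. Fhl1 (ENSRNOG00000000875) binds titin's elastic region and the MAP kinase module at the sarcomere, and is known in mice as a gene whose loss blunts pressure-induced hypertrophy. Fhl1 was at 1593 and 1466 CPM in the PE libraries, against 159 and 207 CPM in the control libraries. Both PE libraries lay far above both controls, and the gap between groups was many times the spread within either. The log2 fold change was 3.06 ± 0.20 (SE), with a 95% interval of 6.14-fold to 11.3-fold (adjusted p = 1.81e-05). By fitted log2 fold change Fhl1 ranked 69th from the top among the 15257 tested genes, first of the 10 members.

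Fhl2 (ENSRNOG00000016866), the family member most restricted to heart, is a cofactor that restrains calcineurin and ERK signalling. Fhl2 was at 93.8 and 96.6 CPM with PE and at 134 and 109 CPM in controls. Its PE values lay close together just under the lower control. The difference, -0.35 ± 0.17 on the log2 scale, did not pass (adjusted p = 0.200), and its 95% interval ran from 0.605-fold to 1.02-fold. Without control replicate 2 it was at -0.49 and passed (adjusted p = 0.0044), while leaving out control replicate 1 gave -0.19 and no call. Over its 12 alternatives the adjusted p ran from 0.0044 to 0.808. The number of Fhl1 reads per Fhl2 read was 17.0 and 15.2 with PE and 1.19 and 1.90 in controls, a 10.7-fold difference of the ratio. With 2 libraries against 2, the 2-sided exact permutation test over samples cannot go below p = 0.333, the value found for this and for each of the 9 other within-family ratios (0.333 when adjusted over the 10).

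RefSeq promoter windows of build GRCr8, from 250 bases before to 50 after an annotated start, were found for 8 of the 10 genes, in 10 windows. They were searched on both strands for the CArG box, the binding site of serum response factor (SRF), which drives many cytoskeletal muscle genes. A CArG box lay in 4 of the 10 members' windows, 2 of them of Fhl2, and in 1.64% of all 33469 windows. The motif was chosen after these windows were seen, so the 2 values are given side by side and are no test. Those 4 windows are shown, since they belong to Fhl1, the gene with the largest rise, and to Fhl2 and Ldb3, which did not pass. The capitals mark the CArG box, which begins 102 bases before the start in Fhl1, 58 and 95 bases before it in the 2 windows of Fhl2, and 52 bases before it in Ldb3. The windows are Fhl1 chrX:139638246-139638545 (plus strand), Fhl2 chr9:52923277-52923576 and chr9:52954491-52954790 (minus strand), and Ldb3 chr16:9924630-9924929 (minus strand), each printed in the direction of transcription.
Fhl1 window 1: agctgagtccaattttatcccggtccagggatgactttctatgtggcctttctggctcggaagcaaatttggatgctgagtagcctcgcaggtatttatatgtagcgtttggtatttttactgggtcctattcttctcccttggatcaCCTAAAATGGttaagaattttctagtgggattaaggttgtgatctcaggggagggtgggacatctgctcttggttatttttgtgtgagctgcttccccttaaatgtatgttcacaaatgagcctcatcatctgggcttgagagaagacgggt
Fhl2 window 1: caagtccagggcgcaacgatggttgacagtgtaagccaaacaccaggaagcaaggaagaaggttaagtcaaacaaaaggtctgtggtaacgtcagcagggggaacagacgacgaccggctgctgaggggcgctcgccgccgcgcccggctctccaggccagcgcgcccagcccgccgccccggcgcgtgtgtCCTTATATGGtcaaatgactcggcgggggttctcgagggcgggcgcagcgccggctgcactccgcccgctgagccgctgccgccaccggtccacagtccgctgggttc
Fhl2 window 2: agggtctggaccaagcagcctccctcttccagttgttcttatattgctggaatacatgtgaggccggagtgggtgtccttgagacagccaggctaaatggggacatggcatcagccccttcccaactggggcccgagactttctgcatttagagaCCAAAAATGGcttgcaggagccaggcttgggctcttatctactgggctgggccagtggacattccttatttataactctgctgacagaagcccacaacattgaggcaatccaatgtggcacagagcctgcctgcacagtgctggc
Ldb3: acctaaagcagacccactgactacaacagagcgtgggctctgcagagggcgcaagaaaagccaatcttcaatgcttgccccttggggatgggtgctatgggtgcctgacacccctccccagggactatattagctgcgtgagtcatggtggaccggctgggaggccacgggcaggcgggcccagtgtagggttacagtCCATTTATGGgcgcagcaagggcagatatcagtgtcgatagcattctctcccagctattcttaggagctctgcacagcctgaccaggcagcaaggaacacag
The CArG letters differed among the 4 windows, CCTAAAATGG in Fhl1, CCTTATATGG and CCAAAAATGG in Fhl2 and CCATTTATGG in Ldb3. A second Fhl1 window and the windows of Csrp1, Csrp2, Lmcd1, Pdlim5 and Pdlim7 held none. A TEAD (MCAT) motif, CATTCC, and a GATA motif, AGATAA, were each found in 1 member window, the second of Fhl2, and in 14.2% and 11.6% of all windows. A MEF2 motif (CTA, 4 letters A or T, then TAG) was found in 0 of the 10 member windows and in 0.565% of all windows. None of these motifs overlapped another, and a match is a description of letters only. Which start site these cells used was not measured.

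The cysteine-rich proteins Csrp1, Csrp2 and Csrp3 share a layout of paired LIM domains. Csrp3 (ENSRNOG00000014327), muscle LIM protein, is the striated muscle form, binds the Z-disc and acts in calcineurin signalling, and its loss in mice causes dilated cardiomyopathy. Csrp3 was at 360 and 332 CPM in the PE libraries and at 75.0 and 76.9 CPM in the controls. The control values were nearly equal, and both PE libraries were far above them. The log2 fold change was 2.19 ± 0.16 (adjusted p = 2.75e-05), with a 95% interval of 3.54-fold to 5.86-fold.

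Csrp2 (ENSRNOG00000003772), known as a smooth muscle LIM protein, was at 82.8 and 73.8 CPM with PE, against 31.6 and 23.2 CPM in controls. Its control replicates were 0.45 apart on the log2 scale, less than the gap between the groups. The log2 fold change was 1.51 ± 0.19 (adjusted p = 0.000552). Csrp1 (ENSRNOG00000008937), the form found broadly in smooth muscle and fibroblasts, was at 517 and 591 CPM with PE and at 330 and 245 CPM in controls. The groups did not overlap, but Csrp1 had the smallest rise of the 7 genes that changed, with a log2 fold change of 0.95 ± 0.19 (adjusted p = 0.00732) and a 95% interval of 1.44-fold to 2.58-fold. Without PE replicate 2 Csrp1 was at 0.85 and did not pass (adjusted p = 0.108). Over its 12 alternatives the adjusted p ran from 7.43e-14 to 0.108.

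Csrp3 took a larger part of the family's reads in the PE libraries. There were 1.43 and 1.78 reads of Csrp1 per read of Csrp3 with PE, against 4.40 and 3.18 in controls. Reads of Csrp2 per read of Csrp3 numbered 0.230 and 0.222 with PE, against 0.422 and 0.302 in controls. Reads of Csrp1 per read of Csrp2 numbered 6.25 and 8.01 with PE, against 10.4 and 10.5 in controls. None of these ratios overlapped between groups, but they share genes and other gene pairs were not counted. Gene length cancels in each of these comparisons of a ratio between libraries.

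**Figure D2:**
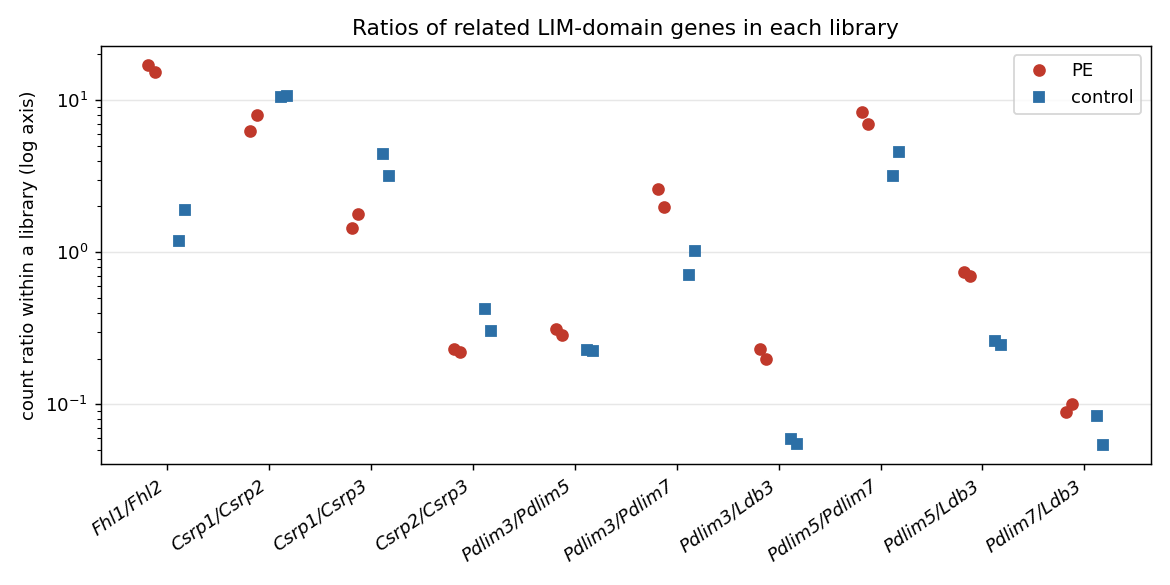
Ratio of read counts of 2 related LIM-domain genes within each library (log axis), with PE libraries as red dots on the left and control libraries as blue squares on the right. All 10 ratios are apart between groups, most widely Fhl1/Fhl2 at 17.0 and 15.2 with PE against 1.19 and 1.90 in controls. The ratios share genes, other gene pairs were not counted, and 56.7% of single tested genes are apart.

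Lmcd1 (ENSRNOG00000005690) encodes a LIM and cysteine-rich protein that binds GATA6 and blocks its contact with DNA, and that promotes calcineurin signalling and hypertrophy in mouse heart. Lmcd1 was at 65.7 and 69.2 CPM in the PE libraries, against 13.3 and 10.4 CPM in the controls. Its counts were the lowest of the 10 genes, at 713 and 475 in control replicates 1 and 2, where counting error was 3.75% and 4.59%. Both PE libraries stood far above both controls. The log2 fold change was 2.51 ± 0.19 (adjusted p = 2.75e-05), with a 95% interval of 4.26-fold to 7.58-fold, the second largest rise of the set. Gata6, listed among its partners, was at -0.42 ± 0.16 and did not pass (adjusted p = 0.104).

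The PDZ-LIM proteins carry a PDZ domain that binds alpha-actinin and so place kinases and other partners at the Z-disc. Pdlim3 (ENSRNOG00000012658), the actinin-associated LIM protein, has a single LIM domain. Pdlim3 was at 244 and 232 CPM with PE and at 73.0 and 73.9 CPM in controls. Both groups were tight, and Pdlim3 had the smallest standard error of the set, with a log2 fold change of 1.70 ± 0.16 (adjusted p = 9.77e-05) and a 95% interval of 2.54-fold to 4.14-fold.

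Pdlim5 (ENSRNOG00000016419), Enigma homolog, binds protein kinase C and protein kinase D and, in rat neonatal cardiomyocytes, is known to have long and short splice forms with opposite effects on growth. Pdlim5 was at 782 and 816 CPM with PE, against 322 and 332 CPM in controls. Values within each group were close and the groups were well apart, with a log2 fold change of 1.29 ± 0.16 (adjusted p = 0.000504). The deposited counts are per gene, so they do not tell which splice forms of Pdlim5, Ldb3 or Fhl1 changed.

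Pdlim7 (ENSRNOG00000013653), Enigma, was at 94.1 and 117 CPM with PE and at 102 and 73.1 CPM in controls. It was the member whose groups overlapped, since control replicate 1 lay above PE replicate 1. Its log2 fold change of 0.26 ± 0.20 did not pass (adjusted p = 0.436), with a 95% interval of 0.882-fold to 1.64-fold. Pdlim7 moved with the choice of libraries, at 0.53 without control replicate 1, where it passed (adjusted p = 0.00377), and at 0.04 without control replicate 2. Over its 12 alternatives the adjusted p ran from 0.00377 to 0.945.

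Ldb3 (ENSRNOG00000059166), also called Cypher or ZASP, anchors protein kinase C at the Z-disc and is needed for Z-disc stability in mouse muscle. Ldb3 was at 1057 and 1166 CPM with PE, against 1227 and 1348 CPM in controls. The PE values lay just below the control values without overlap. The log2 fold change of -0.21 ± 0.17 did not pass (adjusted p = 0.464), with a 95% interval of 0.664-fold to 1.12-fold, and it did not pass under the 12 alternatives (adjusted p from 0.103 to 0.956). Among the PDZ-LIM ratios, those of Pdlim3 and Pdlim5 to Ldb3 differed most between groups. Reads of Pdlim3 per read of Ldb3 numbered 0.231 and 0.199 with PE and 0.0594 and 0.0548 in controls, a 3.76-fold difference. Reads of Pdlim5 per read of Ldb3 numbered 0.740 and 0.700 with PE and 0.263 and 0.246 in controls, a 2.83-fold difference.

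**Figure D3:**
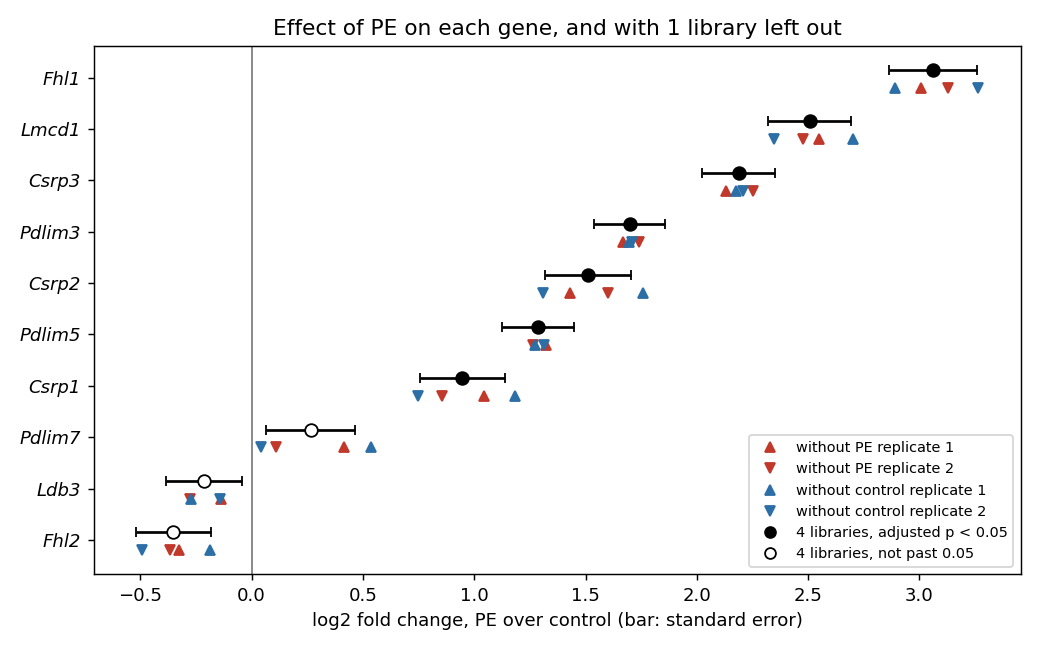
Log2 fold change of each gene, PE over control, with its standard error (black circles, filled where the adjusted p was under 0.05), and the value with each library left out in turn (triangles). Fhl1 stands at 3.06 and Fhl2 at -0.35, and Pdlim7 comes nearest to 0 with a library left out, at 0.04 without control replicate 2.

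By likeness of pattern, the root mean square difference of mean-centred log2 CPM over the 4 libraries, Csrp3 lay nearest to Mfsd4a and then to Nppb, the B-type natriuretic peptide gene, at 0.032 and 0.046. Nppb was at a log2 fold change of 2.19. Lmcd1 lay nearest to Tnfrsf12a, the receptor of the cytokine TWEAK, and then to the tubulin gene Tuba1a, at 0.026 and 0.079. Csrp2 lay nearest to Bdkrb1, a bradykinin receptor gene, and then to Stard5, at 0.027 and 0.046. Pdlim3 lay nearest to Rai2 and then to Dsc2, a desmosomal cadherin, at 0.027 and 0.030. Pdlim5 lay nearest to Epb41l4b and then to Msn, moesin, at 0.031 and 0.035. Csrp1 lay nearest to Chchd4 and then to Sv2a, at 0.0202 and 0.0205. The gene nearest to Fhl1 was Adgb, at 0.125, a wider gap than for the other members. Among the members themselves the closest pairs were Ldb3 with Fhl2, at 0.171, and Csrp2 with Pdlim3, at 0.188. Members that did not pass had nearer matches, Pdlim7 with Lmnb2 (0.0074), Fhl2 with Cdk20 (0.0079) and Ldb3 with Lrrc45 (0.011). Each of these distances rests on 4 libraries, and how common such distances are among all tested genes was not counted.

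In the edgeR fit of all 4 libraries, calls among other LIM-domain genes were near the share over all tested genes. Of 40 other LIM-domain genes of the cytoskeleton and adhesion sites on the list, 38 were in the table and 36 were tested. Of those 36, 3 rose (8.33%), 4 fell (11.1%) and 29 did not pass, beside 7.39% higher and 8.3% lower over all tested genes. Their median log2 fold change was 0.09. DESeq2 called more of them higher, 7, and 4 lower, beside 8.22% and 8.77% of all genes with an adjusted p. Leaving out PE replicate 1 gave 1 rise and 0 falls, leaving out PE replicate 2 gave 0 of each, leaving out control replicate 1 gave 12 rises and 5 falls, and leaving out control replicate 2 gave 7 of each. Over all tested genes leaving out PE replicate 1 gave 3.83% higher and 3.81% lower, and PE replicate 2 gave 3.83% and 4.16%. Dropping control replicate 1 gave 14.8% higher and 15.3% lower, and dropping control replicate 2 gave 15.2% and 14.9%. The members and this list were chosen with results known, so their counts are given side by side with no test of the difference.

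Pdlim1, a close relative of Pdlim3, rose to 112 and 125 CPM with PE, against 65.0 and 57.4 CPM in controls, a log2 fold change of 0.95 ± 0.16 (adjusted p = 0.00323). Leaving out PE replicate 2 ended the call of Pdlim1 (0.88, adjusted p = 0.0887, beside 1.39e-09 to 0.0318 over the other settings run). Nebl, which encodes the Z-disc protein nebulette and a separate LIM-domain form that these counts per gene do not tell apart, was at 350 and 305 CPM with PE, against 430 and 774 CPM in controls. It fell by 0.88 ± 0.25 on the log2 scale (adjusted p = 0.0398), and by 0.39 when control replicate 2 was left out (adjusted p = 0.0212). The call was lost when PE replicate 1 or PE replicate 2 was left out (adjusted p = 0.0823 and 0.217). Crip1, a small cysteine-rich protein, fell by 0.78 ± 0.23 (adjusted p = 0.0443) and did not pass in 4 alternatives. Limd1, an adhesion-site LIM protein, fell to 60.8 and 61.3 CPM with PE, against 109 and 80.9 CPM in controls, a log2 fold change of -0.64 ± 0.18 (adjusted p = 0.0406). Without control replicate 1 Limd1 was at -0.40 (adjusted p = 0.0361). Its call was lost without PE replicate 1 (-0.63, adjusted p = 0.398), without PE replicate 2 (-0.64, adjusted p = 0.372) and under the replicate block (-0.62, adjusted p = 0.133).

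**Figure D4:**
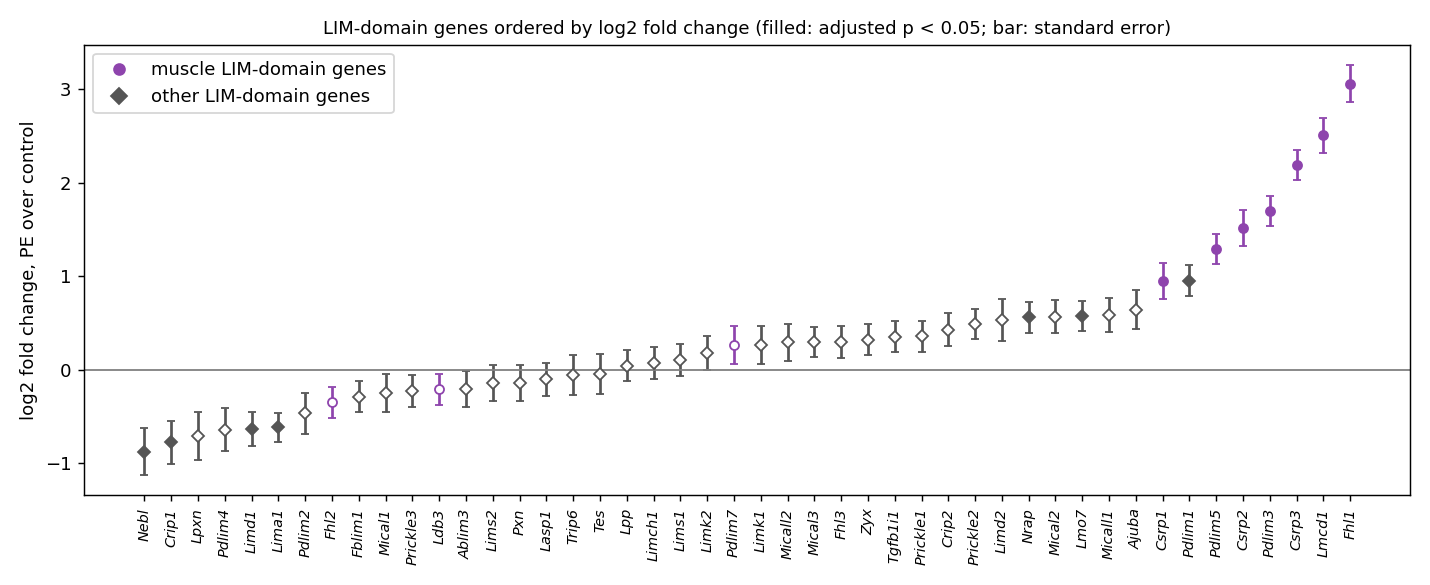
Log2 fold change, PE over control, with its standard error for the 10 muscle LIM-domain genes (purple circles) and the 36 other tested LIM-domain genes (grey diamonds), in increasing order and filled where the adjusted p was under 0.05. A group of 6 muscle LIM-domain genes stand at the right end above every other LIM gene, from Pdlim5 at 1.29 to Fhl1 at 3.06. Nebl stands at the left end at -0.88. Both sets of genes were chosen with results known, so their order is no test of a difference between them.

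Z-disc anchors and structural partners of these proteins rose in 3 of 12 tested cases, with 0 lower and 9 not passing (median 0.57), beside 7.39% higher and 8.3% lower over all tested genes. DESeq2 called 7 higher and 0 lower, while in edgeR 1 rose with either PE library left out, 8 with control replicate 1 left out and 7 with control replicate 2 left out. With control replicate 1 left out 2 of them were lower. The shares over all tested genes moved in the same fits, as given for the other LIM-domain genes. Actn1, the non-muscle alpha-actinin, rose to 529 and 617 CPM with PE, against 282 and 213 CPM in controls, a log2 fold change of 1.21 ± 0.19 (adjusted p = 0.00185). Actn2, the sarcomeric alpha-actinin to which the PDZ-LIM proteins bind, was at 0.60 ± 0.18 and just missed the threshold (adjusted p = 0.0506). It and Gata6, above, lie outside the rule for named genes and were chosen after their values were seen. Synpo2, myopodin, rose by 0.81 ± 0.16 (adjusted p = 0.00700) and Synpo2l by 0.61 ± 0.18 (adjusted p = 0.0444). Both calls were lost when PE replicate 1 (adjusted p = 0.0939 and 0.164) or PE replicate 2 (adjusted p = 0.208 and 0.647) was left out, and Synpo2l also lost the call under other scalings and under the replicate block (adjusted p = 0.133).

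Of 23 tested signalling and transcription partners 3 rose (13%), 1 fell (4.35%) and 19 did not pass (median -0.02), beside 7.39% higher and 8.3% lower over all tested genes. With either PE library left out 1 rose, beside 3.83% of all tested genes in each of those fits, and with control replicate 1 left out 5 rose, beside 14.8%. With control replicate 2 left out 2 fell, beside 14.9%. Myocd, myocardin, a coactivator of SRF, rose to 275 and 313 CPM with PE, against 123 and 116 CPM in controls, a log2 fold change of 1.30 ± 0.16 (adjusted p = 0.000490). Srf itself was at -0.14 ± 0.19 and did not pass (adjusted p = 0.668), chosen after its value was seen. Nfatc2, a transcription factor activated by calcineurin, fell to 8.28 and 11.5 CPM with PE, against 26.9 and 25.8 CPM in controls, a log2 fold change of -1.42 ± 0.21 (adjusted p = 0.00120). Ilk, integrin-linked kinase, rose by 0.81 ± 0.21 and Prkca, protein kinase C alpha, by 0.62 ± 0.17 (adjusted p = 0.0243 and 0.0295). Both calls were lost when PE replicate 1 (adjusted p = 0.113 and 0.362) or PE replicate 2 (adjusted p = 0.168 and 0.330) was left out, and Prkca also did not pass under the replicate block (adjusted p = 0.127).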

How the data were processed

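The deposited table of raw counts per gene, made by the authors, was used as it stands. Cutadapt 2.0, STAR 2.4.2a and featureCounts 1.6.4 with build Rnor_6.0 are named per the submitters' processing notes. Neither the annotation release nor the strand setting is given in the sources used here, so reads of overlapping genes are uncertain. The authors' deposited comparison table holds a log2 fold change, a mean normalised count (signal), a Wald score and p-values per gene, per the file headers, and gave the gene names.

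Counts were fitted with edgeR 4.0.16 (limma 3.58.1, R 4.3.3) over all genes, using TMM factors of 0.982 to 1.03 and the default filter (minimum count 10, minimum total 15), with the quasi-likelihood test of PE over control and Benjamini-Hochberg adjustment. CPM uses the TMM-adjusted library size. Intervals of 95% come from the fit's 2 residual and 8.1 prior degrees of freedom. DESeq2 1.42.0 was an alternative. The fit was run on data simulated from its own estimated spread, which checks the computation and cannot tell whether replicate libraries are technical. Replicate libraries differed beyond sampling noise: chi-square over degrees of freedom was 19.8 for the PE pair and 133 for the control pair.

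The 10 members and the gene lists were chosen with earlier results of these data known. Named genes were the members, up to 4 changed genes with the largest absolute log2 fold change per list, and the 2 nearest genes in pattern per member, of which examples are given. Motifs were chosen after the promoter windows were seen. Of the listed genes, Wtip, Ablim1, Tcap, Ttn, Palld, Mrtfb (also listed as Mkl2) and Pecam1 had no entry under that symbol and were not analysed here, Mrtfa was counted under its older symbol Mkl1, and 1 further listed gene is not reported here.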

Additional observations from a re-analysis of the deposited data

How the results depend on the processing

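All 12 alternatives kept the direction of the 10 members' log2 fold changes, and Fhl1, Lmcd1, Csrp3, Pdlim3, Csrp2 and Pdlim5 passed under each. With each library left out in turn, Csrp1 ranged from 0.75 to 1.18 and was not called without PE replicate 2 (0.85), Fhl2 from -0.49 to -0.19 with a call without control replicate 2, and Pdlim7 from 0.044 to 0.53 with a call without control replicate 1. Members lower then numbered 0 to 1. A fit with 1 library in a group takes the spread from the other pair and assumes that the lone library varies like it. Of the 12 alternatives, summing counts over the identifiers of a symbol could not differ from the main fit, since each symbol matched 1 identifier. A crossed pairing of replicates, also among the 12, was chosen after seeing the data. The count of all tested genes higher was 604 without PE replicate 1, 607 without PE replicate 2, 2319 with control replicate 1 left out and 2398 with control replicate 2 left out, and that of genes lower was 601, 660, 2389 and 2357 in the same order.

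Other LIM genes higher were 7 with DESeq2, 6 without a filter, 1 with library sizes alone, 1 with the replicate block and 0 to 12 with a library left out, and those lower were 1 with the replicate block and 0 to 7 with a library left out. Z-disc partners higher were 7 with DESeq2, 7 without a filter, 5 with mitochondrial genes left out and 1 to 8 with a library left out, and those lower were 1 without a filter and 0 to 2 with a library left out. Signalling partners higher ranged from 1 to 5 and lower from 1 to 2 with a library left out. Over all tested genes the share higher was 7.03% without a filter, 6.77% with library sizes alone, 5.98% with the replicate block and 7.19% with mitochondrial genes left out. The share lower was 8.4%, 9.61%, 6.89% and 8.39% in the same order. For DESeq2 the shares were 8.22% and 8.77% of genes with an adjusted p. The causes were not tested.

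Replicate numbers are shared between groups, but nothing in the labels ties them to a shared culture, and differences between replicates 1 and 2 correlated at -0.23 across genes between PE and control. The replicate block gave 1964 called genes against 2393, and kept 7 members higher. A crossed pairing, chosen after seeing the data, gave 2270 genes higher and 2407 lower, 7 members higher and 1 lower (Fhl2, -0.34), 11 other LIM genes higher and 7 lower, 8 Z-disc partners higher and 1 lower, and 2 signalling partners lower. Depth limited no member, since the smallest count was 475.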
